A study of Sus scrofa with 7 samples.

Results

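The WNT ligands, their receptors and the secreted proteins that modulate them were followed through 3 porcine stem cell types, namely extra-embryonic endoderm cells and naïve-like and primed embryonic stem cells. The members are the genes whose listed name is that of a WNT ligand, a Frizzled (FZD) receptor, an LRP5 or LRP6 co-receptor, an SFRP, DKK, WIF1, KREMEN or NOTUM inhibitor, an R-spondin (RSPO), an LGR receptor, PORCN, WLS, RNF43 or ZNRF3. This rule found 40 of the 29510 genes listed, which were 16 ligands, 8 receptors, 8 inhibitors, 6 R-spondins and LGR receptors, PORCN and RNF43. A further 8 entries carry no such name in the tables, but their Ensembl identifiers pair with one in the reference name table. They are WNT5B, WNT11, FZD2, LRP5, WLS (listed under its older symbol GPR177), ZNRF3, DKK4 and another entry of WIF1, and they are given as identifier-matched genes outside every count of members.

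The pXEN cells (porcine extra-embryonic endoderm cells) were 3 lines derived from inner cell masses of parthenogenetic blastocysts. They were cultured on mouse embryonic fibroblasts in a medium with LIF, the GSK3 inhibitor CHIR99021, dimethindene maleate, minocycline and Y27632. The naïve-like embryonic stem cells (nESCs) were 2 lines, also on mouse embryonic fibroblasts, in a medium with FGF, LIF, the MEK inhibitor PD0325901, CHIR99021 at a higher concentration than in the pXEN medium, the TGFβ receptor inhibitor SB431542 and doxycycline. The primed embryonic stem cells (pESCs) were 2 lines that the labels describe as converted from the naïve-like state, grown on STO mouse fibroblasts with activin A, bFGF, EGF and LIF and without a GSK3 inhibitor. Each library came from 1 line, so n counts lines. The cell type and the medium cannot be told apart in this design, nor, in comparisons with pESCs, can the feeder. The pXEN lines were at passages 26, 26 and 23, the nESC lines at passages 21 and 22, and both pESC lines at passage 20. Transcript levels were measured by sequencing rRNA-depleted RNA, with 10408164 to 12995720 counts per library. Levels are given in FPKM, fragments scaled by gene length and library total, and differences between cell types as edgeR log2 fold changes of counts. In bulk libraries, fewer cells that express a gene and less of its RNA per cell cannot be told apart.

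WNT ligands are lipid-modified secreted proteins that bind Frizzled receptors together with LRP5 or LRP6. Binding releases β-catenin from the complex of AXIN, APC and GSK3 that marks it for destruction, and β-catenin then activates genes through TCF and LEF factors. CHIR99021 blocks GSK3 and so acts inside the cell, downstream of the ligand and its receptor. Around the receptor stand several controls. SFRPs and WIF1 bind ligands, DKK1 blocks the LRP co-receptor, the ligases RNF43 and ZNRF3 remove Frizzleds from the surface, and R-spondins acting with LGR receptors hold those ligases back. In the early mammalian embryo, WNT signals and their inhibitors from the extra-embryonic endoderm take part in patterning the epiblast.

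Several features of the libraries bear on the values. All 7 extra-embryonic endoderm markers examined (GATA4, GATA6, SOX17, HNF4A, COL4A2, PDGFRA and DAB2) were called higher in the pXEN lines than in either ESC type, and SOX2 lay between 102 and 154 FPKM in the ESC lines. Of these 7 markers, 5 were also called higher in pESCs than in nESCs. Their sum was 1870, 1590 and 1760 FPKM in the pXEN lines, 86.6 and 88.5 in the pESC lines, and 13.5 and 13.6 in the nESC lines, over all 7. POU5F1 was at or below 0.284 FPKM in every library, and SOX2 at 0, 1.98 and 0 FPKM in the pXEN lines. NANOG, a marker of pluripotent cells, was at 15.5, 4.50 and 13 FPKM in the pXEN lines, 1.43 and 1.41 in the pESC lines, and 0 and 0.148 in the nESC lines. Of 8 tested genes of the pluripotent list, 5 (NANOG, LIN28A, SALL4, ZIC2 and OTX2) were called higher in the pXEN lines than in either ESC type, against the direction of that label. In the pESC lines the trophoblast list summed to 44.6 and 41.0 FPKM against 0.661 to 1.81 in the other libraries, nearly all of it from TFAP2C, with CDX2 at 0.855 and 1.55 FPKM. pXEN line 2 stood apart from lines 1 and 3. It held 38 counts on chromosome Y against 0 to 11 in the other libraries, and 14 entries of 12 fibroblast genes summed to 250 FPKM there against 18.9 and 21.8 in lines 1 and 3. The same sum was 40.2 and 43.8 in the nESC lines and 114 and 161 in the pESC lines. Genes of chromosome 13 lay 0.42 and 0.44 higher in log2 in pXEN lines 1 and 3 by their median, and −0.01 in line 2. A value without line 2 is given beside each called member or count that its omission ends or moves by over 1.5 times, and values with an offset per chromosome beside each fold change of a gene on chromosome 13 against nESCs or pESCs. The part of feeder RNA in the results was not tested.

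Summed over each class, the cell types had different profiles. The 16 ligands together reached 249 and 195 FPKM in the pESC lines, 25.0, 21.5 and 24.9 in the pXEN lines, and 8.14 and 12.2 in the nESC lines. The pESC lines thus carried the most ligand RNA, and the nESC lines the least. The 8 receptors ran in another order, with 622, 377 and 709 FPKM in the pXEN lines, 265 and 265 in the pESC lines, and 143 and 175 in the nESC lines. The 8 inhibitors summed to 200, 164 and 200 FPKM in the pXEN lines, 173 and 155 in the pESC lines, and 69.0 and 65.0 in the nESC lines. The R-spondins and LGR receptors together were at 65.8, 75.6 and 74.5 FPKM in the pXEN lines, 71.2 and 80.0 in the nESC lines, and 34.5 and 33.0 in the pESC lines. These sums are a description without a test, and in most classes 1 or 2 genes made up most of the sum.

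**Figure D1:**
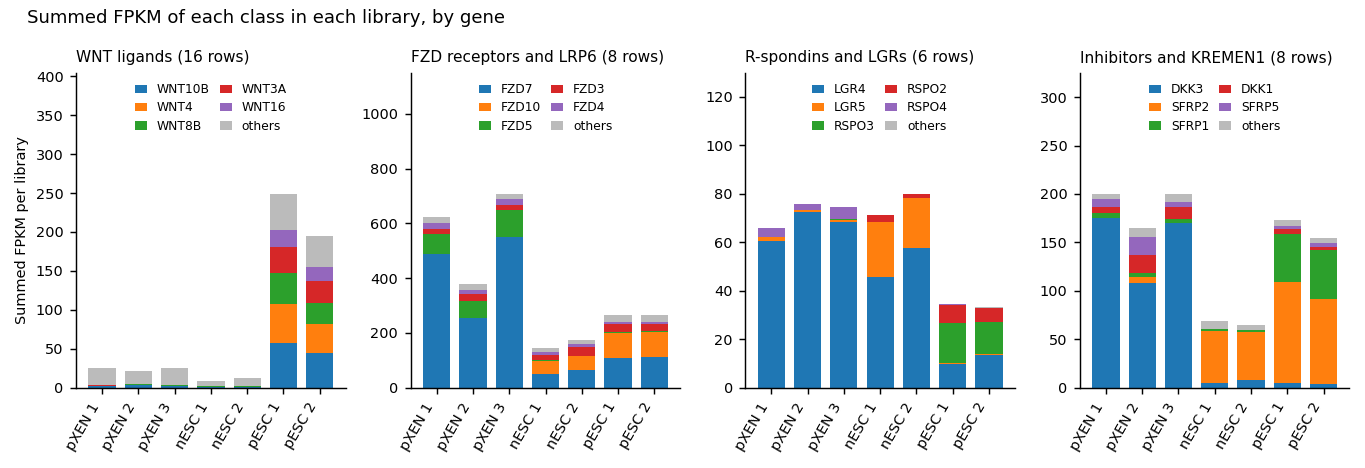
Summed FPKM of the ligands, receptors, R-spondins with LGR receptors, and inhibitors in each of the 7 libraries, as stacked bars from 0. Colours mark the 5 genes with the most FPKM of each class and grey the others, and each panel has its own vertical scale. The ligand bars of the pESC lines stand at 249 and 195 FPKM, where no other library passes 25.0, and FZD7 and DKK3 fill most of the receptor and inhibitor bars of the pXEN lines.

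Of the 40 members, 34 passed the filter on low counts and were tested, and the same 34 had a mean of at least 1 FPKM in at least 1 cell type. A member could pass this filter through the cell type where it is high, so these counts describe the tested members and not the family. Of these, 18 exceeded their nESC level in pXEN cells (called, at adjusted p below 0.05) and 7 lay below it, or 73.5% together. Over all 17447 genes tested, 28.3% were called higher and 26.2% lower in that comparison, 54.5% together. Set against pESCs, the pXEN cells had 9 members higher and 17 lower, 76.5% together, beside 23.9%, 24.4% and 48.3% of all genes. In pESCs against nESCs, 23 were higher and 5 lower, 82.4% together, beside 19.0%, 13.3% and 32.2% of all genes. The median log2 fold change of the tested members was 1.35, −1.42 and 3.65 in the 3 comparisons, and that of all genes −0.00, −0.01 and 0.01. The comparisons share libraries, so they are not independent of each other. Without pXEN line 2 the counts became 18 and 6, 8 and 18, and 25 and 6, while the shares of all genes called rose to 60%, 55.4% and 43.8%. The 5 members lower in pESCs than in nESCs became 3 without either nESC line or without either pESC line. Omission of any 1 library other than pXEN line 2 left 39.6% to 50.1%, 30.2% to 43.9% and 16.2% to 31.8% of all genes called, and every count given below with a library left out stands beside these shares.

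By order, 15 members were called higher in pESCs than in both other cell types, and 9 of these were ligands. They made up 44.1% of the tested members, and 7.93% of all genes had this order. In pXEN cells 7 members exceeded both ESC types, namely FZD4, FZD5, FZD7, DKK1, DKK3, RSPO4 and WNT2B, a share of 20.6% near the 18.1% of all genes. In nESCs LGR5 and WNT7A did so, 5.88% beside 8.67%. Some members of these sets lost a needed call when a single library was left out, as given below. They are FZD4, DKK1, RSPO4 and WNT2B in pXEN cells, WNT7A in nESCs, and WNT1, FZD10, RSPO2 and PORCN in pESCs. FZD3 and KREMEN1 were called in no comparison. The 6 members left untested were WNT2, WNT9B, WNT10A, DKK2, LGR6 and WIF1, with 0 to 27 counts in any library. Most of WNT2's counts were in nESC line 1, with 27 counts against 1 in line 2.

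Among the ligands, 12 of the 13 tested were higher in pESCs than in nESCs and WNT7A was lower. Against pXEN cells 9 were higher in pESCs and 1, WNT2B, lower. In pXEN cells 7 ligands were higher than in nESCs and 1 lower, or 2 lower without nESC line 2. The shares of ligands called in either direction were 61.5% in pXEN cells against nESCs, 76.9% against pESCs and 13 of 13 between the ESC types, where all genes had 54.5%, 48.3% and 32.2%. The number of named ligands at 1 FPKM or more was 12 and 13 in the pESC lines, 5 or 6 in the pXEN lines, and 1 and 2 in the nESC lines.

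WNT10B, a ligand of the canonical β-catenin branch, had the highest level of the named ligands in the pESC lines (chr5:15408276-15412522, minus strand, in the Sscrofa10.2 coordinates of the tables). It lay at 56.9 and 44.3 FPKM in the pESC lines, 1.98, 2.61 and 2.36 in the pXEN lines, and 0.201 and 0.139 in the nESC lines. The ranges of the 3 cell types did not overlap. Its fitted log2 fold change in pXEN cells against pESCs was −4.43 (SE 0.20, edgeR adjusted p = 3.63e-06). The nESC lines held only 3 and 2 counts. The ratio of normalised counts was 293 for pESCs over nESCs (95% exact counting interval 125 to 905, edgeR adjusted p = 4.98e-06). It was 13.6 for pXEN cells over nESCs (5.64 to 43.0, adjusted p = 8.12e-05). These intervals cover counting error only.

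WNT1, the founding member of the family, is the neighbour of WNT10B on chromosome 5, 8685 bases away on the other strand with no gene listed between them. Its levels were much lower, at 2.77 and 2.46 FPKM in the pESC lines and 0.729, 0.468 and 0.572 in the pXEN lines, with no count in the nESC lines. Set against a floor of 3 counts per library, pESCs were at least 11.5-fold higher than nESCs (edgeR adjusted p = 0.00103) and pXEN cells at least 2.59-fold higher (adjusted p = 0.0028). The fitted log2 fold change of pXEN cells against pESCs was −2.13 (SE 0.46, adjusted p = 0.00782). That call was lost without pESC line 1 (adjusted p = 0.0837) and without pESC line 2 (0.0646).

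A like order held in the pair WNT3A and WNT9A, which lie on opposite strands of chromosome 2, 42586 bases apart with no gene listed between them. WNT3A, a canonical ligand, had 33.8 and 29 FPKM in the pESC lines, 0.673, 0.658 and 0.602 in the pXEN lines, and 0 and 0.162 in the nESC lines. It was lower in pXEN cells than in pESCs by a log2 fold change of −5.58 (SE 0.35, edgeR adjusted p = 1.40e-05). The ratio of pESCs over nESCs was 391 (95% counting interval 108 to 3230, adjusted p = 3.38e-05), on 0 and 2 counts in the nESC lines. Without nESC line 1 it was 191 (52.7 to 1580), and without nESC line 2 pESCs were at least 133-fold higher. pXEN cells had 7, 8 and 7 counts, a ratio of 8.07 over nESCs (1.98 to 70.8, adjusted p = 0.00838), and that call was lost without nESC line 1 (ratio 3.95, adjusted p = 0.0604), while without nESC line 2 they were at least 2.75-fold higher. WNT9A followed with 10.3 and 7.46 FPKM in the pESC lines, 1.45, 2.64 and 2.51 in the pXEN lines, and 0.0827 and 0.0859 in the nESC lines. All 3 comparisons of WNT9A were called. By edgeR, its log2 fold change was 6.66 in pESCs against nESCs (SE 0.45, adjusted p = 4.69e-05), 4.66 in pXEN cells against nESCs (SE 0.44, adjusted p = 6.94e-05) and −2.00 in pXEN cells against pESCs (SE 0.27, adjusted p = 0.000653).

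A further 5 ligands were high in the pESC lines and low in both other cell types. WNT4, known for its part in kidney and gonad development, reached 51.0 and 37.0 FPKM in the pESC lines and at most 0.174 in any other library. In log2 terms its fold change was −9.32 in pXEN cells against pESCs (SE 0.40, edgeR adjusted p = 3.24e-06) and 8.39 in pESCs against nESCs (SE 0.44, adjusted p = 1.58e-05). The latter was 9.07 without nESC line 1, and without pXEN line 3 the ratio of pESCs over pXEN cells was 1020 (95% counting interval 350 to 4970). WNT8B had 39.5 and 26.9 FPKM in the pESC lines, 0.511, 1.40 and 0.549 in the pXEN lines, and 0.995 and 1.21 in the nESC lines. Its log2 fold change was −5.29 in pXEN cells against pESCs (SE 0.40, adjusted p = 3.64e-05) and 4.89 in pESCs against nESCs (SE 0.46, adjusted p = 0.000215), and without pXEN line 2 the former was −5.93. WNT16 had 21.0 and 18.0 FPKM in the pESC lines, 0.0756 and 0.0785 in the nESC lines, and 0, 0.399 and 0 in the pXEN lines. WNT7B had 16.3 and 12.1 FPKM in the pESC lines, 0 and 0.0523 in the nESC lines, and 0, 0.213 and 0 in the pXEN lines. Every pXEN count of WNT16 and WNT7B was in line 2, which held 5 and 8 of them. By edgeR, the log2 fold change of pXEN cells against pESCs was −7.01 for WNT16 (SE 0.72, adjusted p = 0.000157) and −7.50 for WNT7B (SE 0.72, adjusted p = 0.000116), and leaving out line 2 left pXEN cells with no count of either. The pESCs were then at least 73.4-fold and at least 161-fold higher. Over nESCs the ratio of pESCs was 250 for WNT16 (68.9 to 2070, adjusted p = 0.000645) and 546 for WNT7B (151 to 4520, adjusted p = 0.000451). That of WNT7B was 267 without nESC line 1 and at least 187-fold without nESC line 2. WNT8A, which acts in the primitive streak of early embryos, had 3.94 and 3.41 FPKM in the pESC lines and no count in the other 5 libraries. pESCs were at least 17.1-fold higher than pXEN cells (adjusted p = 0.0011) and at least 18.9-fold higher than nESCs (adjusted p = 0.00347), against 3 counts per library. Between pXEN cells and nESCs, no call was made for WNT4, WNT8A, WNT8B, WNT7B or WNT16.

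**Figure D2:**
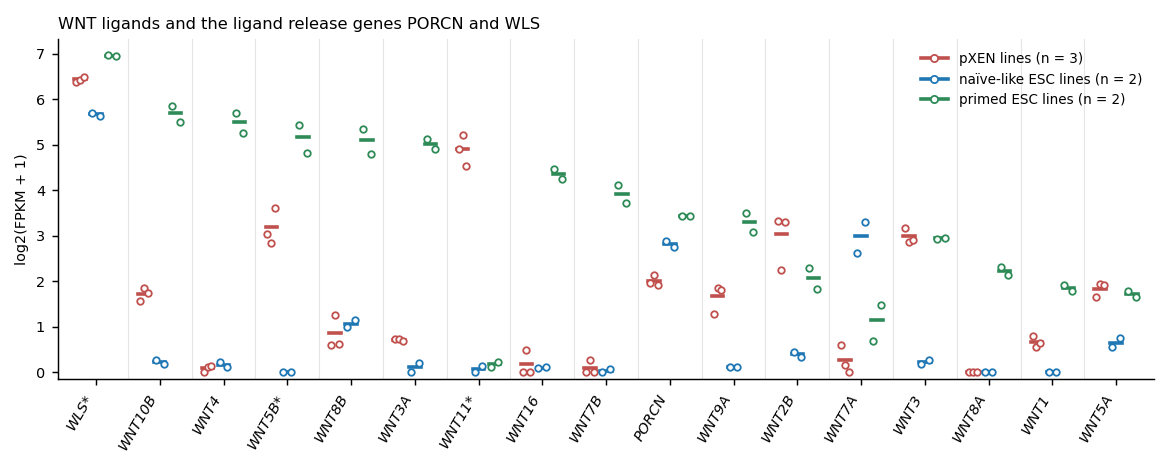
Level of each ligand, and of PORCN and WLS, in the 7 libraries as log2(FPKM + 1), ordered by the highest mean of a cell type. Points are libraries, bars stand at the mean FPKM of a cell type (3 pXEN, 2 nESC and 2 pESC lines), and an asterisk marks an identifier-matched gene. WNT10B, WNT4, WNT8B, WNT3A, WNT16 and WNT7B stand highest in the pESC lines, WNT11 in the pXEN lines and WNT7A in the nESC lines.

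Other genes led the named ligands in the pXEN cells. The identifier-matched WNT11 and WNT5B, given below, had higher mean levels there than any of these. WNT2B had 8.96, 3.76 and 8.92 FPKM in the pXEN lines, 3.93 and 2.55 in the pESC lines, and 0.360 and 0.267 in the nESC lines. pXEN line 2 fell within the range of the pESC lines. On the log2 scale the fold change of pXEN cells over nESCs was 4.50 (SE 0.49, edgeR adjusted p = 0.000151) and 1.16 over pESCs (SE 0.38, adjusted p = 0.0363). The call against pESCs was lost in 10 alternatives (adjusted p = 0.0508 to 0.225), among them the omission of any 1 library other than pXEN line 2. WNT3, which is needed to form the primitive streak in mice, was at 8.03, 6.23 and 6.52 FPKM in the pXEN lines, 6.66 and 6.72 in the pESC lines, and 0.136 and 0.211 in the nESC lines. The ratio over nESCs was 39.6 for pXEN cells (95% counting interval 16.8 to 123, adjusted p = 2.04e-05) and 38.3 for pESCs (16.2 to 119, adjusted p = 8.88e-05). WNT5A, the main ligand of the planar polarity branch, was at 2.13, 2.85 and 2.76 FPKM in the pXEN lines, 2.45 and 2.14 in the pESC lines, and 0.462 and 0.676 in the nESC lines. Its fitted log2 fold change against nESCs was 2.17 for pXEN cells (SE 0.28, adjusted p = 0.000364) and 2.00 for pESCs (SE 0.29, adjusted p = 0.0018). WNT5A lies on chromosome 13, and with an offset per chromosome these were 1.76 (adjusted p = 0.00257) and 1.95 (adjusted p = 0.00436). Neither WNT3 nor WNT5A was called between pXEN cells and pESCs, with overlapping levels and log2 fold changes of 0.06 (SE 0.26) and 0.18 (SE 0.25). Their sign was not stable, with −0.06 to −0.01 for WNT3 in 3 alternatives and −0.19 for WNT5A with an offset per chromosome.

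WNT7A was the exception to the low ligand levels of nESCs. It had 5.18 and 8.86 FPKM there, 0.622 and 1.80 in the pESC lines, and 0.507, 0.124 and 0 in the pXEN lines, and made up 68.9% of the ligand FPKM of nESCs. The log2 fold change was −5.07 in pXEN cells against nESCs (SE 0.86, edgeR adjusted p = 0.00158) and −2.53 in pESCs against nESCs (SE 0.82, adjusted p = 0.0473). Of pXEN cells against pESCs it was −2.54 and not called (SE 0.91, adjusted p = 0.0504), while 6 alternatives called it (adjusted p = 0.0149 to 0.0499), 1 of them without pXEN line 1 (−4.10, adjusted p = 0.0177). The call between the ESC types was lost when any of the 4 ESC lines was left out (adjusted p = 0.0882 to 0.238), with a log2 fold change of −1.97 without pESC line 1 and −3.49 without pESC line 2. Without pXEN line 1, which held most of its pXEN counts, the ratio of nESCs over pXEN cells was 110 (95% counting interval 30.2 to 917). WNT7A also lies on chromosome 13. With an offset per chromosome its log2 fold change was −5.52 in pXEN cells against nESCs (adjusted p = 0.0009), −2.58 between the ESC types (adjusted p = 0.0407) and −2.94 in pXEN cells against pESCs, which was then called (adjusted p = 0.0267).

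Both identifier-matched ligands changed as well. WNT11 (chr9:11589743-11607393, minus strand), a ligand of the β-catenin-independent branch, was at 28.8, 36.1 and 22.1 FPKM in the pXEN lines and at or below 0.175 in every ESC line. Its level exceeded that of every named ligand in the pXEN lines. The fitted log2 fold change of pXEN cells against pESCs was 7.69 (SE 0.47, edgeR adjusted p = 1.33e-05), and the ratio over nESCs was 585 (95% counting interval 162 to 4840, adjusted p = 7.34e-06), on 2 counts in nESC line 2. Without nESC line 1 this ratio was 286, without nESC line 2 pXEN cells were at least 199-fold higher, and without pESC line 2 the ratio over pESCs was 313. WNT5B was at 42.2 and 27.4 FPKM in the pESC lines and 7.25, 6.20 and 11.2 in the pXEN lines, with no count in the nESC lines. pESCs were at least 63.2-fold higher than nESCs (adjusted p = 0.0002) and pXEN cells at least 15.0-fold higher (adjusted p = 0.00025), against 3 counts per library. By edgeR, the log2 fold change between pXEN cells and pESCs was −2.07 (SE 0.35, adjusted p = 0.00292). With these entries included, the ligand sums became 61.0, 63.9 and 58.2 FPKM in the pXEN lines, 8.14 and 12.3 in the nESC lines, and 292 and 222 in the pESC lines.

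The genes that let a cell release WNT proteins were found in all 3 cell types. PORCN, the enzyme that attaches the lipid to WNT proteins, was at 9.88 and 9.84 FPKM in the pESC lines, 6.35 and 5.70 in the nESC lines, and 2.92, 3.40 and 2.78 in the pXEN lines. Its edgeR log2 fold change of pXEN cells over nESCs was −0.99 (SE 0.20, edgeR adjusted p = 0.00412) and −1.69 over pESCs (SE 0.20, adjusted p = 0.000328). Between the ESC types it was 0.70 (SE 0.22, adjusted p = 0.0434), a call lost in 11 alternatives (adjusted p = 0.0533 to 0.171) that include the omission of any 1 library other than pXEN line 2. WLS, the carrier that brings WNT proteins to the cell surface, ran at higher levels and in a different order. It had 124 and 122 FPKM in the pESC lines, 82.3, 85.3 and 89.2 in the pXEN lines, and 51.3 and 48.4 in the nESC lines. On the log2 scale the fold change was 0.77 in pXEN cells against nESCs (SE 0.09, adjusted p = 0.000242), −0.51 against pESCs (SE 0.09, adjusted p = 0.0021) and 1.29 in pESCs against nESCs (SE 0.10, adjusted p = 8.88e-05).

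Of the 8 receptors, all of which were tested, 5 were higher and 2 lower in pXEN cells than in nESCs, 3 were higher and 3 lower than in pESCs, and 3 were higher and 2 lower in pESCs than in nESCs. That is 87.5%, 75% and 62.5% called, beside 54.5%, 48.3% and 32.2% of all genes. Several of these counts depended on single libraries. Against nESCs the 5 higher became 3 without nESC line 1, and the 2 lower became 1 without pXEN line 1 or 2 or any ESC line. In pESCs against nESCs the 3 higher became 1 without nESC line 1 or either pESC line, and the 2 lower became 1 without any ESC line. FZD7 (chr15:117063378-117065102, plus strand) had the highest mean level of the named receptors in every cell type, although FZD10 was slightly above it in nESC line 1. The identifier-matched FZD2, given below, had a higher mean than FZD7 in both ESC types. FZD7 lay at 487, 253 and 551 FPKM in the pXEN lines, 108 and 113 in the pESC lines, and 48.1 and 63.1 in the nESC lines, with no overlap between cell types. In the pXEN cells it made up 75.6% of the receptor FPKM. In log2 terms its fold change of pXEN cells over nESCs was 2.94 (SE 0.33, edgeR adjusted p = 0.000176) and 1.97 over pESCs (SE 0.31, adjusted p = 0.00137). Between the ESC types it was 0.98 and not called (SE 0.32, adjusted p = 0.0516), while 6 alternatives, 1 of them without pXEN line 2 and 1 without pXEN line 3, called it (adjusted p = 0.000478 to 0.0496). Line 2 held 0.488 times the mean level of the other pXEN lines.

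FZD5, known in mice for its role in the yolk sac, separated the pXEN cells further (chr15:122425805-122428979, plus strand). It had 74.3, 63.0 and 96.8 FPKM in the pXEN lines, 2.44 and 2.18 in the nESC lines, and 1.25 and 0.514 in the pESC lines. The log2 fold change of pXEN cells over nESCs was 5.07 (SE 0.33, edgeR adjusted p = 1.11e-05) and 6.48 over pESCs (SE 0.37, adjusted p = 9.53e-06). Without pESC line 1 the latter was 7.24. pESCs were lower than nESCs by a log2 fold change of −1.41 (SE 0.38, adjusted p = 0.0234), which was −2.17 without pESC line 1, and this call was lost without pESC line 2 or either nESC line (adjusted p = 0.0699 to 0.111).

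FZD10 had the opposite pattern (chr14:26522226-26524159, minus strand). The pXEN lines held 0, 2 and 0 counts, while the nESC lines were at 49.2 and 50.4 FPKM and the pESC lines at 92.9 and 91.4. In mean level it was the named receptor next after FZD7 in both ESC types. The ratio over pXEN cells was 1560 for nESCs (95% counting interval 433 to 12900, edgeR adjusted p = 5.41e-07) and 2870 for pESCs (793 to 23700, adjusted p = 1.08e-06). Without pXEN line 2 the pXEN cells had no count of FZD10, and the ESC types were at least 336-fold and at least 616-fold higher. Without pXEN line 3 the ratios were 1030 and 1890. The fitted log2 fold change of pESCs against nESCs was 0.87 (SE 0.19, adjusted p = 0.00937), a call lost when any of the 4 ESC lines was left out (adjusted p = 0.0601 to 0.0769).

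The other Frizzleds moved less or lay at lower levels. FZD4, which is also the receptor of norrin, had 19.9, 14.4 and 20.7 FPKM in the pXEN lines, 11.2 and 14.1 in the nESC lines, and 5.35 and 6.72 in the pESC lines. Its log2 fold change was 1.61 in pXEN cells against pESCs (SE 0.20, edgeR adjusted p = 0.000418) and −1.08 in pESCs against nESCs (SE 0.21, adjusted p = 0.00656), and the latter was lost without pESC line 1 (0.0652). Against nESCs it was 0.52 in pXEN cells (SE 0.19, adjusted p = 0.0483), a call lost in 11 alternatives (adjusted p = 0.0614 to 0.28), among them the omission of any 1 library other than pXEN line 2. FZD6 rose in steps, with 0.492 and 0.425 FPKM in the nESC lines, 4.01, 3.09 and 2.64 in the pXEN lines, and 6.95 and 7.54 in the pESC lines. Its fitted log2 fold change was 2.81 in pXEN cells against nESCs (SE 0.26, adjusted p = 6.26e-05), −1.15 against pESCs (SE 0.21, adjusted p = 0.00252) and 3.96 in pESCs against nESCs (SE 0.27, adjusted p = 5.34e-05). FZD9 was low throughout, with 0, 0.0978 and 0.307 FPKM in the pXEN lines, 0.974 and 0.481 in the nESC lines, and 1.25 and 1.96 in the pESC lines. It was lower in pXEN cells by −2.36 against nESCs (SE 0.87, adjusted p = 0.0487) and −3.48 against pESCs (SE 0.83, adjusted p = 0.00938), and these were −3.66 and −4.78 without pXEN line 3. Its call against nESCs was lost without any 1 library other than pXEN line 3 (adjusted p = 0.072 to 0.258), and its call against pESCs without pESC line 2 (0.0766). FZD3, a receptor of the planar polarity branch in axon guidance, was at 18.7 to 31.0 FPKM in all 7 libraries, and none of its log2 fold changes (−0.24, −0.43 and 0.19) was called, but without pXEN line 2 that of pXEN cells against pESCs was (−0.60, adjusted p = 0.0282). Those against nESCs turned sign, to 0.13 in pXEN cells without nESC line 2 and −0.10 in pESCs without nESC line 1.

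**Figure D3:**
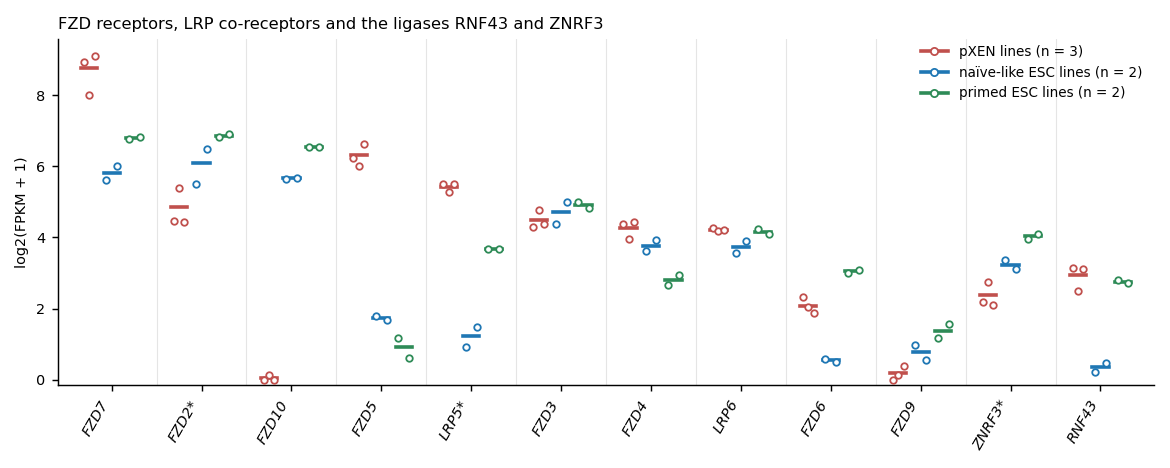
Level of each Frizzled receptor, LRP co-receptor and Frizzled-removing ligase in the 7 libraries as log2(FPKM + 1), receptors and co-receptors first, each set ordered by the highest mean of a cell type. Points are libraries, bars stand at the mean FPKM of a cell type (3 pXEN, 2 nESC and 2 pESC lines), and an asterisk marks an identifier-matched gene. FZD7, FZD5 and LRP5 stand highest in the pXEN lines, while FZD10 is near 0 there and above 49.0 FPKM in the ESC lines.

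The co-receptors differed in how far they moved. LRP6 had 18.3, 17.0 and 17.6 FPKM in the pXEN lines, 17.9 and 16 in the pESC lines, and 10.9 and 13.8 in the nESC lines. By edgeR, its log2 fold change against nESCs was 0.51 for pXEN cells (SE 0.13, edgeR adjusted p = 0.00994) and 0.44 for pESCs (SE 0.14, adjusted p = 0.0404). The former call was lost without nESC line 1 (adjusted p = 0.0903) and the latter in 10 alternatives (0.0524 to 0.234), which include the omission of pXEN line 1 or 3, of nESC line 1 and of either pESC line. The interval of LRP6 overlaps 1 gene on the other strand. The libraries are directional, but whether reads of that gene enter the LRP6 counts was not tested. LRP5, matched by identifier, had 44.2, 37.6 and 44.5 FPKM in the pXEN lines, 11.7 and 11.7 in the pESC lines, and 0.909 and 1.79 in the nESC lines. All its comparisons were called, with log2 fold changes of 4.96 (SE 0.27, adjusted p = 4.37e-06) and 1.86 (SE 0.21, adjusted p = 0.000281) in pXEN cells against nESCs and pESCs, and 3.10 (SE 0.26, adjusted p = 0.000136) between the ESC types. FZD2, also matched by identifier, had 112 and 119 FPKM in the pESC lines, 44.6 and 88.8 in the nESC lines, and 21.2, 41.3 and 20.7 in the pXEN lines. In mean level it exceeded FZD7, at 66.7 against 55.6 FPKM in nESCs and 115 against 111 in pESCs. In nESC line 1 FZD7 was the higher. FZD2 was lower in pXEN cells by −2.04 against pESCs (SE 0.36, adjusted p = 0.00233) and −1.27 against nESCs (SE 0.36, adjusted p = 0.0183). The latter was −0.68 without nESC line 2 (adjusted p = 0.194) and was also lost without pXEN line 1 (0.0572) or 3 (0.0543). Together with the identifier-matched entries, the receptors summed to 688, 456 and 774 FPKM in the pXEN lines, 189 and 266 in the nESC lines, and 388 and 395 in the pESC lines.

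The ligases that remove Frizzleds from the surface, which are themselves activated by β-catenin in many tissues, did not move together. RNF43 was at 7.86, 4.65 and 7.70 FPKM in the pXEN lines, 5.95 and 5.59 in the pESC lines, and 0.174 and 0.380 in the nESC lines. It exceeded its nESC level by 4.59 on the log2 scale in pXEN cells (SE 0.38, edgeR adjusted p = 3.55e-05) and 4.36 in pESCs (SE 0.39, adjusted p = 0.000177), or 5.25 and 5.02 without nESC line 2. Between pXEN cells and pESCs the log2 fold change was 0.23, with overlapping levels and no call (adjusted p = 0.528). ZNRF3, matched by identifier, was at 14.6 and 16.2 FPKM in the pESC lines, 9.22 and 7.58 in the nESC lines, and 3.53, 5.75 and 3.31 in the pXEN lines. It was lower in pXEN cells by −1.0 against nESCs (SE 0.25, adjusted p = 0.0103) and −1.86 against pESCs (SE 0.25, adjusted p = 0.000558). Its call against nESCs was lost without nESC line 1 (0.0762). Between the ESC types it was 0.86 (SE 0.27, adjusted p = 0.0426), lost without any 1 ESC line or without pXEN line 1 (0.0504 to 0.194). nESCs thus held much less RNF43 than ZNRF3 RNA per length, and pXEN cells held more RNF43 than ZNRF3 in lines 1 and 3 and less in line 2.

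R-spondins and their LGR receptors were split between the cell types. The R-spondins summed to 24.5 and 19.1 FPKM in the pESC lines, 3.02 and 1.68 in the nESC lines, and 3.81, 2.35 and 5.20 in the pXEN lines. The LGR receptors summed to 10.02 and 13.9 FPKM in the pESC lines, 68.1 and 78.4 in the nESC lines, and 62.0, 73.3 and 69.3 in the pXEN lines. The cell type with the most R-spondin RNA therefore had the least LGR RNA.

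The R-spondins found differed between the cell types. RSPO3 (chr1:39635369-39787134, minus strand) was at 16.5 and 13.2 FPKM in the pESC lines, with no count in the nESC lines and 0, 0 and 2 counts in the pXEN lines. pESCs were at least 68.5-fold higher than nESCs against 3 counts per library (edgeR adjusted p = 0.000459), and the ratio over pXEN cells was 279 (95% counting interval 76.8 to 2310, adjusted p = 0.000131). Both pXEN counts were in line 3. Without that line pESCs were at least 61.1-fold higher, and without line 2 the ratio was 180 (49.7 to 1490). RSPO2 was at 7.65 and 5.59 FPKM in the pESC lines and 3.02 and 1.68 in the nESC lines, with no count in any pXEN line. pXEN cells were at least 16.8-fold lower than nESCs (adjusted p = 0.000283) and at least 46.9-fold lower than pESCs (adjusted p = 0.000151). By edgeR, the log2 fold change between the ESC types was 1.48 (SE 0.42, adjusted p = 0.0418), lost without any 1 ESC line (0.0632 to 0.216). RSPO4 was the R-spondin of the pXEN lines, at 3.81, 2.35 and 5.05 FPKM, with no count in the nESC lines and 3 counts in each pESC line. pXEN cells were at least 9.83-fold higher than nESCs (adjusted p = 0.000768), with a ratio of 10.8 over pESCs (4.76 to 30.4, adjusted p = 0.00449) whose call was lost without pESC line 2 (0.0523). RSPO4 was also called higher in pESCs than in nESCs (adjusted p = 0.0478), on 3 counts per pESC library, and this was lost in 11 alternatives (0.0516 to 0.27), among them the omission of any 1 library other than pXEN line 2. No fold is given there, since both cell types lie at or under the floor.

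LGR4 held most of the LGR RNA, with 60.5, 72.4 and 68.1 FPKM in the pXEN lines, 45.7 and 57.7 in the nESC lines, and 9.78 and 13.6 in the pESC lines. On the log2 scale the fold change was 2.52 in pXEN cells against pESCs (SE 0.19, edgeR adjusted p = 3.42e-05) and −2.16 in pESCs against nESCs (SE 0.20, adjusted p = 0.000186). Between pXEN cells and nESCs it was 0.37 and not called (SE 0.17, adjusted p = 0.104), while 1 alternative, a replicate block, called it (0.36, adjusted p = 0.0474). LGR5, a marker of intestinal and other stem cells and a target of β-catenin, was chiefly an nESC gene here. It had 22.5 and 20.6 FPKM in the nESC lines, 1.57, 0.873 and 1.19 in the pXEN lines, and 0.184 and 0.229 in the pESC lines. All 3 comparisons were called, with log2 fold changes of −4.16 in pXEN cells against nESCs (SE 0.27, adjusted p = 1.10e-05), 2.50 against pESCs (SE 0.41, adjusted p = 0.00153) and −6.66 in pESCs against nESCs (SE 0.39, adjusted p = 2.60e-05). LGR6 had at most 4 counts in a library.

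**Figure D4:**
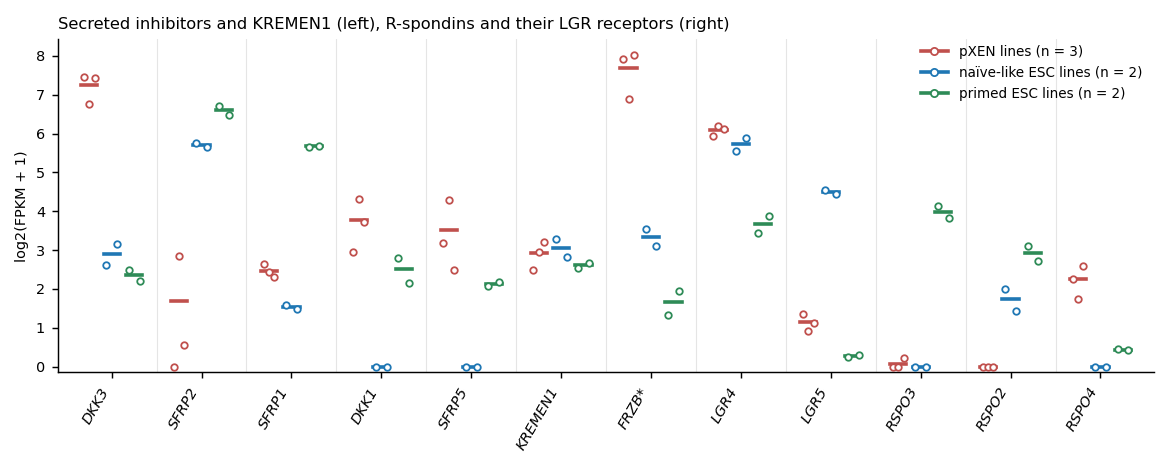
Level of the secreted inhibitors and KREMEN1 (left) and of the R-spondins and LGR receptors (right) in the 7 libraries as log2(FPKM + 1). Points are libraries, bars stand at the mean FPKM of a cell type (3 pXEN, 2 nESC and 2 pESC lines), and the asterisk marks FRZB, a ligand-binding inhibitor whose name the rule does not hold. DKK3 and FRZB stand highest in the pXEN lines, SFRP2 and SFRP1 in the pESC lines and LGR5 in the nESC lines.

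Among the members, the leading inhibitors were SFRPs in the ESCs and DKKs in the pXEN cells. The SFRPs summed to 157 and 142 FPKM in the pESC lines, 55.2 and 51.1 in the nESC lines, and 13.3, 29.1 and 9.01 in the pXEN lines. The DKKs summed to 182, 128 and 182 FPKM in the pXEN lines, 10.6 and 7.02 in the pESC lines, and 5.11 and 7.85 in the nESC lines. FRZB (SFRP3), whose name the rule does not hold, is left out of the SFRP sums. At 240, 118 and 259 FPKM in the pXEN lines, it alone exceeded the DKK sum in lines 1 and 3. The lead of the DKKs over the SFRPs in those lines thus depends on leaving FRZB out. Of the 6 inhibitors tested, 4 were higher and 1 lower in pXEN cells than in nESCs, and 2 were higher and 2 lower than in pESCs. The 2 higher became 1, DKK3, without pXEN line 2 or either pESC line. In pESCs against nESCs SFRP1, SFRP5 and DKK1 were called higher, and without pXEN line 2 the counts were 4 higher and 1 lower. Of the 6, 83.3%, 66.7% and 50% were thus called, while 54.5%, 48.3% and 32.2% of all genes were.

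DKK3, the divergent member of the Dickkopf family, made up 80.2% of the inhibitor FPKM of the pXEN cells (chr2:50699985-50758475, plus strand). It had 175, 108 and 170 FPKM in the pXEN lines, 5.11 and 7.85 in the nESC lines, and 4.62 and 3.61 in the pESC lines. The log2 fold change of pXEN cells over nESCs was 4.53 (SE 0.30, edgeR adjusted p = 1.19e-05) and 5.21 over pESCs (SE 0.31, adjusted p = 1.24e-05). Between the ESC types it was −0.67 and not called (SE 0.30, adjusted p = 0.128), but without pXEN line 2 it was called (adjusted p = 0.0292). DKK1, the LRP antagonist that visceral endoderm secretes in the mouse embryo, was at 6.71, 18.8 and 12.3 FPKM in the pXEN lines and 5.94 and 3.41 in the pESC lines, with no count in the nESC lines. pXEN cells were at least 61.9-fold higher than nESCs (adjusted p = 0.000251) and pESCs at least 22.8-fold higher (adjusted p = 0.00193), against 3 counts per library. Between pXEN cells and pESCs the log2 fold change was 1.44 (SE 0.48, adjusted p = 0.0445). It was 1.03 and not called without pXEN line 2 (adjusted p = 0.0651), and 6 other alternatives lost it as well, among them the omission of pXEN line 3 (0.0845) or of pESC line 1 (0.0806) or 2 (0.241).

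SFRP2, which binds WNT ligands outside the cell, was the leading inhibitor among the members in both ESC types (chr8:79743275-79751980, plus strand). It had 104 and 88.2 FPKM in the pESC lines, 53.2 and 49.3 in the nESC lines, and 0, 6.15 and 0.478 in the pXEN lines. The fitted log2 fold change of pXEN cells over nESCs was −4.49 (SE 0.93, edgeR adjusted p = 0.00431) and −5.38 over pESCs (SE 0.95, adjusted p = 0.00233). pXEN line 2 held 148 of the 159 pXEN counts, and without it these were −7.65 (adjusted p = 6.91e-07) and −8.54 (adjusted p = 5.16e-07). Between the ESC types the log2 fold change was 0.89 with no call (SE 0.89, adjusted p = 0.484), although their ranges did not overlap. It was called without pXEN line 2 (0.90, adjusted p = 0.00702) and with only the ESC lines in the fit (adjusted p = 0.000692). SFRP1 had 49.6 and 50.3 FPKM in the pESC lines, 5.23, 4.41 and 3.97 in the pXEN lines, and 1.98 and 1.78 in the nESC lines. In log2 terms its fold change was 4.72 in pESCs against nESCs (SE 0.17, adjusted p = 4.80e-06), −3.45 in pXEN cells against pESCs (SE 0.14, adjusted p = 2.23e-06) and 1.26 in pXEN cells against nESCs (SE 0.15, adjusted p = 0.00025). SFRP5, known in the mouse as a gene of the anterior visceral endoderm, was at 8.05, 18.5 and 4.57 FPKM in the pXEN lines and 3.21 and 3.55 in the pESC lines, with no count in the nESC lines. pXEN cells were at least 72.1-fold higher than nESCs (adjusted p = 0.000552) and pESCs at least 23.3-fold higher (adjusted p = 0.00431). Line 2 held 2.93 times the mean of the other pXEN lines, and without it the former bound was 43.6-fold. By edgeR, the log2 fold change between pXEN cells and pESCs was 1.63 and not called (SE 0.58, adjusted p = 0.0547), while 5 alternatives called it (adjusted p = 0.0116 to 0.0495), among them the omission of pXEN line 3 (1.99, adjusted p = 0.014).

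The remaining inhibitors were low or not called. KREMEN1, a receptor for DKK1, lay between 4.64 and 8.70 FPKM in all 7 libraries, with no call. WIF1 has 2 entries on opposite strands of chromosome 5, which could divide its reads. The one listed by name had 1, 5 and 6 counts in the pXEN lines, 0 in the nESC lines, and 2 and 1 in the pESC lines. The other had 11, 5 and 20 counts in the pXEN lines, 3 and 0 in the nESC lines, and 8 and 3 in the pESC lines, and its call in pXEN cells against nESCs (ratio 8.80, 95% counting interval 2.78 to 44.7, edgeR adjusted p = 0.047) was lost in 8 alternatives (0.0547 to 0.211). Among these were the omission of nESC line 2 (ratio 4.50) or of either pESC line, while without nESC line 1 pXEN cells were at least 4.34-fold higher. DKK4 had 5 counts in pESC line 1 and none elsewhere, and DKK2 had 3 counts, all in pXEN line 2.

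Other genes of the pathway were read from 4 lists. Among the 14 tested genes of other extracellular regulators, 9 were higher and 1 lower in pXEN cells than in nESCs, 7 higher and 3 lower than in pESCs, and 5 higher and 2 lower in pESCs than in nESCs. The shares called were 71.4%, 71.4% and, at 7 of 14, 50%, beside 54.5%, 48.3% and 32.2% of all genes. The 1 lower against nESCs became 2 without either pESC line, while both lower in pESCs than in nESCs lost their call without nESC line 1 or pESC line 1, and 1 remained without pESC line 2. FRZB, the inhibitor also known as SFRP3, had 240, 118 and 259 FPKM in the pXEN lines, 10.6 and 7.60 in the nESC lines, and 1.53 and 2.84 in the pESC lines. Its log2 fold change of pXEN cells over nESCs was 4.50 (SE 0.42, edgeR adjusted p = 6.97e-05) and 6.56 over pESCs (SE 0.48, adjusted p = 3.11e-05). Its level in pXEN lines 1 and 3 exceeded the sum of the 3 listed SFRPs in any library, so the SFRP sums without it understate this family in pXEN cells. GPC3, a cell surface proteoglycan that binds WNTs, reached 902, 688 and 1040 FPKM in the pXEN lines and 0.435 to 2.74 in the ESC lines. TPBG, a membrane glycoprotein that inhibits the canonical branch, was at 548 and 363 FPKM in the pESC lines and 61.8 to 99.2 in the other libraries.

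Inside the cell, called genes were found in both directions. Of 33 tested genes of the canonical pathway, 12 were higher and 8 lower in pXEN cells than in nESCs, 10 higher and 10 lower than in pESCs, and 6 higher and 7 lower in pESCs than in nESCs. The shares called, 60.6%, 60.6% and 39.4%, lay near the 54.5%, 48.3% and 32.2% of all genes. The 10 lower than in pESCs became 6 without pESC line 2. The 7 lower in pESCs than in nESCs became 12 without pXEN line 2, 4 without nESC line 2, 3 without pESC line 1 and 2 without pESC line 2. CTNNB1, which encodes β-catenin, was at 487, 422 and 489 FPKM in the pXEN lines, 305 and 305 in the nESC lines, and 255 and 275 in the pESC lines. On the log2 scale the fold change of pXEN cells over nESCs was 0.60 (SE 0.10, edgeR adjusted p = 0.00171) and 0.82 over pESCs (SE 0.11, adjusted p = 0.00046). CTNNB1 lies on chromosome 13, and with an offset per chromosome the former was 0.16 and no longer called (adjusted p = 0.238), and the latter 0.43 (adjusted p = 0.0125). GSK3A, a target of CHIR99021, lay between 62.4 and 71.2 FPKM in all libraries and was called in no comparison. GSK3B, the other target, lies on chromosome 13 too and had 78.7, 54.7 and 76.3 FPKM in the pXEN lines and 25.9 to 35.6 in the ESC lines. Its fitted log2 fold change of pXEN cells over nESCs was 1.18 (SE 0.20, adjusted p = 0.00146) and 1.20 over pESCs (SE 0.20, adjusted p = 0.00162), or 0.72 (adjusted p = 0.00281) and 0.79 (adjusted p = 0.00213) with that offset. CSNK1A1, the kinase that primes β-catenin for GSK3, was at 152 and 156 FPKM in the pESC lines and 96.8 to 122 in the other libraries. It was called higher in pESCs than in either other cell type. Both calls were lost without either pESC line, and that against nESCs also without nESC line 1. DVL1, which relays the signal from Frizzled, was at 138 and 133 FPKM in the nESC lines, 79.3 and 75.1 in the pESC lines, and 50.8, 42.7 and 44.0 in the pXEN lines.

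The transcription factors that β-catenin binds differed between the cell types. TCF7 had 14.8, 15.4 and 17.5 FPKM in the pXEN lines, 14.3 and 12 in the pESC lines, and 0.107 and 0.424 in the nESC lines. By edgeR, its log2 fold change against nESCs was 5.89 in pXEN cells (SE 0.38, edgeR adjusted p = 1.03e-05) and 5.61 in pESCs (SE 0.39, adjusted p = 5.34e-05). Without nESC line 1 these were 5.20 and 4.93, and without nESC line 2 they were 7.17 and 6.89. LEF1 had 13.6 and 12.6 FPKM in the pESC lines, 5.45 and 8.56 in the nESC lines, and 0.688, 1.73 and 0.694 in the pXEN lines. It was lower in pXEN cells by −2.74 against nESCs (SE 0.40, adjusted p = 0.000677) and −3.63 against pESCs (SE 0.39, adjusted p = 0.000206), or −3.34 and −4.23 without pXEN line 2. TCF7L1, the factor best known as a repressor in pluripotent cells, was at 61.1, 57.7 and 59.9 FPKM in the pXEN lines, 33.4 and 29.5 in the nESC lines, and 21.9 and 21.8 in the pESC lines. It was higher in pXEN cells by 0.92 against nESCs (SE 0.10, adjusted p = 0.000174) and 1.45 against pESCs (SE 0.10, adjusted p = 2.88e-05). TCF7L2 was at 32.9, 23.1 and 36.8 FPKM in the pXEN lines, 20.4 and 15.4 in the nESC lines, and 12.5 and 12.3 in the pESC lines.

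Among 15 tested receptors and components of the planar polarity branch, 7 were higher and 3 lower in pXEN cells than in nESCs, 6 higher and 2 lower than in pESCs, and 3 higher and 1 lower in pESCs than in nESCs. The shares called were 66.7%, 53.3% and 26.7%, beside 54.5%, 48.3% and 32.2% of all genes. Without pXEN line 2 the last of these counts became 5 and 2. The 3 lower than in nESCs became 1 without pXEN line 3, nESC line 1 or either pESC line. The 6 higher than in pESCs became 1 without either pESC line. The 2 lower than in pESCs became 1 without pXEN line 1 or 3 or pESC line 1, and both lost their call without pESC line 2. ROR2, a receptor of WNT5A, had 65.2, 43.0 and 72.4 FPKM in the pXEN lines, 34.4 and 36.3 in the pESC lines, and 12.7 and 11.5 in the nESC lines. In log2 terms its fold change of pXEN cells over nESCs was 2.31 (SE 0.22, edgeR adjusted p = 7.13e-05) and 0.78 over pESCs (SE 0.20, adjusted p = 0.0142), the latter lost without pESC line 1 (0.0975) or 2 (0.0755). ROR1 was at 49.3, 29.7 and 57.4 FPKM in the pXEN lines and 1.81 to 2.61 in the ESC lines, with log2 fold changes of 4.37 (SE 0.32, adjusted p = 1.92e-05) and 4.21 (SE 0.32, adjusted p = 3.49e-05). PTK7, a co-receptor of this branch, lay between 59.6 and 96.3 FPKM in all libraries. It was called lower in pXEN cells than in either ESC type. The call against nESCs was lost in 6 alternatives, and that against pESCs without pESC line 2.

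Genes that β-catenin is known to activate in other tissues were read beside the ligands. Of the 19 tested, which include the members LGR5, RNF43 and DKK1 and the identifier-matched ZNRF3, 12 were higher and 1, LGR5, lower in pESCs than in nESCs, beside 19.0% and 13.3% of all genes. Without pXEN line 2 these were 14 and 2. The 12 became 6 without nESC line 1, and 8 without nESC line 2 or either pESC line. In pXEN cells 8 were higher and 6 lower than in nESCs, and 6 were higher and 9 lower than in pESCs, or 5 and 6 without pESC line 1 and 4 and 6 without pESC line 2. These are 73.7% of the targets against nESCs and 78.9% against pESCs, and 68.4% were called between the ESC types, next to 54.5%, 48.3% and 32.2% of all genes. AXIN2, the most general of these targets, had 29.1 and 22.4 FPKM in the pESC lines, 6.05, 2.01 and 7.96 in the pXEN lines, and 2.30 and 4.37 in the nESC lines. Its log2 fold change was 2.93 in pESCs against nESCs (SE 0.59, edgeR adjusted p = 0.00734) and −2.26 in pXEN cells against pESCs (SE 0.49, adjusted p = 0.00635). These calls were lost without nESC line 1 (0.0626) and without pESC line 1 (0.0506). Between pXEN cells and nESCs, the cell types grown with CHIR99021, the levels overlapped and the log2 fold change was 0.66 (SE 0.55, adjusted p = 0.335). NKD1, a feedback inhibitor, was at 3.96 and 2.54 FPKM in the pESC lines and at most 0.457 elsewhere. Its ratio in pESCs was 13.1 over pXEN cells (95% counting interval 4.11 to 67.1, adjusted p = 0.00666) and 14.5 over nESCs (3.69 to 125, adjusted p = 0.0171). The former was lost without pESC line 1 (0.0852) and the latter without any 1 ESC line (0.0833 to 0.147). Without pXEN line 2, which held 2 of its 3 pXEN counts, the fitted log2 fold change against pESCs was −4.41 in place of −3.59.

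The other targets followed no single order. MYCN was at 80.4, 57.8 and 74.9 FPKM in the pXEN lines, 70.9 and 80.9 in the pESC lines, and 14.0 and 15.8 in the nESC lines. It was higher than in nESCs by 2.24 in pXEN cells (SE 0.17, edgeR adjusted p = 2.05e-05) and 2.33 in pESCs (SE 0.18, adjusted p = 8.07e-05). CCND1, a cyclin, was at 76.5 and 67.1 FPKM in the pESC lines, 45.0, 14.7 and 27.5 in the pXEN lines, and 16.7 and 30.9 in the nESC lines. Its fitted log2 fold change between the ESC types, 1.58 (SE 0.48, adjusted p = 0.0383), was lost without any 1 ESC line or without pXEN line 3 (0.0548 to 0.21), and that of pXEN cells against pESCs, −1.30 (SE 0.42, adjusted p = 0.0344), without either pESC line or pXEN line 3 (0.0859 to 0.149). CCND2 was at 38.8 and 66.6 FPKM in the nESC lines, 27.4 and 24.1 in the pESC lines, and 17.1, 8.19 and 21.1 in the pXEN lines. Picked after their values were seen, SP8, BMP4, TBX3 and EPHB3 stood highest in the pXEN lines, and MSX1 and TNFRSF19 in the pESC lines. SP8 was at 47.0, 42.4 and 41.8 FPKM in the pXEN lines and 5.29 to 9.79 in the ESC lines. MSX1 was at 22.4 and 20.9 FPKM in the pESC lines, 2.93 and 2.84 in the nESC lines, and 0.686, 0.267 and 0.447 in the pXEN lines.

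**Figure D5:**
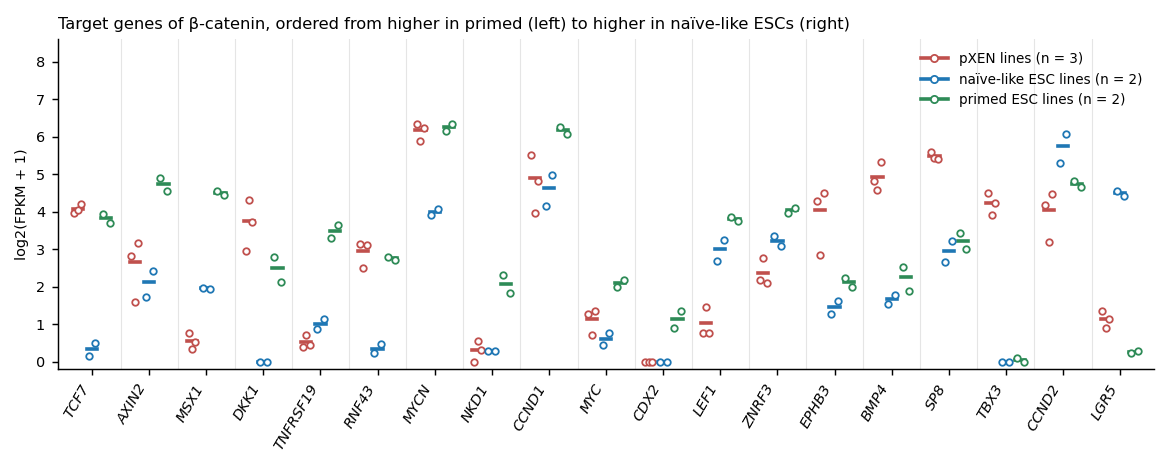
Level of the 19 target genes of β-catenin with a mean of at least 1 FPKM in a cell type, in the 7 libraries as log2(FPKM + 1). Points are libraries, bars stand at the mean FPKM of a cell type (3 pXEN, 2 nESC and 2 pESC lines), and genes run from those highest in pESCs relative to nESCs on the left to LGR5 on the right. In the pESC lines AXIN2 stands at 29.1 and 22.4 FPKM, above the 5 other libraries, and LGR5 below 0.230.

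Over all 75 tested pathway genes that are not members, 33 were higher and 15 lower in pXEN cells than in nESCs, and 27 were higher and 22 lower than in pESCs. In pESCs against nESCs 22 were higher and 10 lower. The shares called were 64.0%, 65.3% and 42.7%, beside 54.5%, 48.3% and 32.2% of all genes. The count of 22 lower genes fell to 14 without pESC line 1 and 12 without pESC line 2. The count of 10 became 18 without pXEN line 2, 6 without nESC line 1, and 4 without either pESC line.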

How the data were processed

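The deposited tables hold, per the labels and the authors' processing notes, reads aligned to Sscrofa10.2 with HISAT2 2.0.5 and counted per gene with featureCounts 1.5.0-p3. The authors deposited counts without normalization and, in another table, FPKM values, and both list 29510 genes, 13114 of them without a gene name. Differences were tested here on the deposited counts with edgeR 4.0.16 in R 4.3.3, by its quasi-likelihood test with TMM scaling and group as the only term, in 1 fit of all 7 libraries (common biological coefficient of variation 0.223). edgeR's filter kept 17447 genes, p-values were adjusted over these by Benjamini-Hochberg, and adjusted p below 0.05 was a call. Where all libraries of a cell type had 0 counts, a bound was set against 3 counts per library (0.231 to 0.288 CPM). Where all had 3 or fewer, the ratio of normalised counts is given with an exact 95% counting interval. Each line is 1 sample. Whether lines of a type came from different embryos is not given in the sources used here, so the tests measure the spread between these lines.

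Members with a mean of at least 1 FPKM in a cell type were described with all values. Of the other pathway genes, a fixed set of central genes and the 3 highest of each list were named, and 6 further targets (SP8, BMP4, TBX3, EPHB3, MSX1 and TNFRSF19) were picked after their values were seen. The members, lists and tests were chosen with earlier results of these data known. Names SP5, TBXT, NOTUM and CER1, among others, were not found in the tables and are not analysed here. Alternatives used DESeq2 1.42.0, limma 3.58.1 on log2(FPKM + 0.1) and log2(FPKM + 1), other scalings and filters, only the groups compared, a replicate block, an offset per chromosome and the omission of each library. For the other pathway genes these were chosen after seeing the data. The test was checked on simulated counts, for pXEN cells against nESCs only and not for genes near the floor.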

Additional observations from a re-analysis of the deposited data

How the results depend on the processing

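Among members and other pathway genes, no called log2 fold change reversed in any alternative, while several uncalled ones turned sign. Those of WNT7B and WNT16 in pXEN cells against nESCs, 1.43 and 0.79, did so without pXEN line 2, which held all their pXEN counts. Of 83 called or leading fold changes of members, 63 kept their side of the threshold in every alternative that could be fitted, as did 13 of 17 for identifier-matched genes and 38 of 58 for other pathway genes. A minimum of 10 counts in every library kept only 14 members, since it removes genes with few counts in 1 cell type. It left 10 higher and 1 lower in pXEN cells against nESCs, 6 higher and 3 lower against pESCs, and 8 higher and 3 lower in pESCs against nESCs. Of the 12261 genes it kept, 27.5% and 27.1%, 23.5% and 22.6%, and 16.8% and 14.9% were called higher and lower. Leaving out 1 library at a time gave 3 to 6 members lower in pESCs than in nESCs. For other pathway genes it gave 12 to 24 lower in pXEN cells than in pESCs and 4 to 18 lower in pESCs than in nESCs, and the cause was not tested. Over all genes, 3308 were higher and 2313 lower in pESCs than in nESCs, and leaving out 1 library gave 2037 to 4213 and 928 to 3353. With 2 lines per ESC type, leaving out 1 leaves a lone line that is assumed to vary like the others. Under upper-quartile scaling the median log2 fold change of all genes was −0.163, −0.095 and −0.061, against −0.00, −0.012 and 0.012. All genes called higher and lower went from 4937 and 4577 to 4348 and 5621, from 4168 and 4261 to 3770 and 4811, and from 3308 and 2313 to 3049 and 2882, and members were 16 and 7, 7 and 18, and 20 and 5. Deviations of same-numbered libraries correlated at −0.009 to 0.044, and those of differently numbered ones at −0.048 to 0.048. Correlations on 2 lines per ESC type cannot decide whether lines of different types share an origin. With a replicate block, members higher and lower were 18 and 7, 9 and 16, and 20 and 5 in the 3 comparisons. Of other pathway genes 32 and 14, 26 and 16, and 21 and 10 were called, and of all genes 4447 and 3827, 3546 and 3447, and 3056 and 1985, or 47.4%, 40.1% and 28.9% together. At this depth a gene under about 3 counts in a library cannot be told from absent.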
